A study of Mus musculus with 16 samples.

Results

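The genes described here are 37 regulators of M phase, the part of the cell cycle in which chromosomes condense, attach to a spindle and separate. The rule lists them by symbol and sets no threshold on a measured value, though the list was drawn up with earlier results of these data known. They cover entry kinases and phosphatases, the chromosomal passenger complex, the spindle checkpoint, the kinetochore, chromosome and spindle proteins, cytokinesis and the transcription factors of the programme. The rule sets cyclins and kinesins apart, but Cenpe, which encodes a kinetochore motor of the kinesin family, is among the 37. All 37 were found by Ensembl identifier among the 55414 gene rows of each table, and all 37 were tested in every comparison, none being lost to the filter on low values.

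RNA came from 16 mouse testis libraries of a series on a late role in spermatocytes of YTHDC2, a helicase that recognises methylated adenosine in RNA. At postnatal day 14 (P14) there were 3 libraries of a conditional knockout of Ythdc2 (cKO), 2 of control and 2 of Cre control, and at P16 there were 3, 2 and 4. Per the labels every group received tamoxifen, the drug that switches on an inducible Cre recombinase, at 10 mg/ml on P12 and P13. Strain, the floxed allele, the driver of the Cre and the genotypes behind "control" and "Cre control" are not given in the labels. The column names of the deposited values begin with WT (wild type) for the controls and with Ctrl for the Cre controls. They say no more of either genotype. The labels do not say that replicates were separate animals, so p-values measure the spread between these libraries, which may be technical.

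Ribosomal RNA was removed with Ribo-Zero components ("the first kit") from the controls and cKO libraries 1 and 2, and with the NEBNext depletion kit ("the second kit") from the Cre controls and cKO library 3. The first-kit libraries held 22220565 to 27531529 reads on genes, and those of the second kit 14494867 to 23200252. A member was covered by between 10 reads (Aurkc) and 19583 reads (Top2a) in a library. Deposited values are reads divided by a factor for the library, scaled within each of 4 tables (a stage with a control type), so levels are compared within a table only. Ythdc2 itself stood at 501.7 to 540.6 in the first-kit cKO libraries at P16 against 2608.8 to 2666.4 in the controls, 19.8% of the control mean, and at 32.9% at P14. In the tables with Cre controls 19.7% remained at P16 and 34.9% at P14, with no overlap between the groups in any table. Those cKO means take in the same first-kit cKO libraries, set against second-kit controls. Within the second kit at P16, cKO library 3 read 226.3 against 1391.7 to 2632.7 in the Cre controls. Within it at P14, cKO library 3 read 322.8 against 1351.7 to 1454.0.

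CDK1 drives entry into M phase once a CDC25 phosphatase has removed its inhibitory phosphates, and PLK1 and the aurora kinases act around it. The checkpoint kinases and their partners hold the anaphase-promoting complex (APC/C) in check until kinetochores, built on the centromeric histone CENPA, are attached to microtubules. Dividing spermatogonia in the testis use this machinery, and spermatocytes hold much of it in store through the long meiotic prophase until their own divisions. In mice at P14 to P16 the first spermatocytes pass through that prophase. Many late cell cycle genes carry in their promoters a CCAAT box, bound by NF-Y, and a cell cycle homology region, bound by the MuvB complex together with MYBL2 and FOXM1.

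Those promoter elements were read from RefSeq promoters on GRCm38.p6, 300 bases each from 250 before to 50 after the start. Entries existed for 30 of the 37 genes, with 33 promoters. Both strands were searched for CCAAT, which reads ATTGG on the other strand. For the cell cycle homology region the letters searched were TTTGAA, which reads TTCAAA on the other strand. A variant of that region, TTCGAA, reads the same on both strands. A CCAAT match can share 1 end base with a match of either homology motif, and CCAAT matches on opposite strands can share 2 bases and are then counted separately. CCAAT was present in 25 of the 33 (75.8%), against 37.4% of 32851 promoters, and in 16 (48.5%) it occurred at least 2 times, against 11.7%. TTTGAA was found in 22 (66.7% against 17.9%), TTCGAA in 4 (12.1% against 1.56%) and either of these in 24 (72.7% against 19.2%). CCAAT and a homology region match stood together in 21 (63.6%), against 7.53% of all. A match is a description of the letters and not a shown binding site.

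The promoters of 5 genes are printed 5′ to 3′ along the transcript, with matches in capitals: Plk1, Cdk1 and Nusap1 because their transcripts were higher in cKO at P16, and Bub1b and Top2a because theirs were lower. Plk1 lies at chr7:122159185-122159484 (plus strand), Cdk1 at chr10:69352863-69353162 (minus strand), Nusap1 at chr2:119618048-119618347 (plus strand), Bub1b at chr2:118597961-118598260 (plus strand) and Top2a at chr11:99024140-99024439 (minus strand).
Plk1 promoter: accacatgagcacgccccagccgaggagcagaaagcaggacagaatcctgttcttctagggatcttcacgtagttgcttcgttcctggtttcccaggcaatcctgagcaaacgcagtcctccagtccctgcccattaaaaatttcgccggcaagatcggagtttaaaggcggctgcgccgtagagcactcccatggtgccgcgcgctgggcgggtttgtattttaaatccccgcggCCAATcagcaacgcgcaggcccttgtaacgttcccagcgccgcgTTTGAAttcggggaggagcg
Cdk1 promoter: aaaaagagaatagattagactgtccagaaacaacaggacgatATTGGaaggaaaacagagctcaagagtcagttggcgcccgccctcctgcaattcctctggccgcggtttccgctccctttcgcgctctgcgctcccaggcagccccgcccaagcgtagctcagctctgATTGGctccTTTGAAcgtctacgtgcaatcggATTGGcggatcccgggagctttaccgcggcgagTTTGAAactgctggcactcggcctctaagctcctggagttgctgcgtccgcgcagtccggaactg
Nusap1 promoter: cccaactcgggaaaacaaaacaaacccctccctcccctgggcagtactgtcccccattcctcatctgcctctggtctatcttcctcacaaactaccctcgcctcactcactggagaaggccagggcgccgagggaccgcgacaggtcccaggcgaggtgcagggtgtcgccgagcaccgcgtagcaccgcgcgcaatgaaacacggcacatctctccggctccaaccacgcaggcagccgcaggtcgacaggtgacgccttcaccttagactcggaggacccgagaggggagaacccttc
Bub1b promoter: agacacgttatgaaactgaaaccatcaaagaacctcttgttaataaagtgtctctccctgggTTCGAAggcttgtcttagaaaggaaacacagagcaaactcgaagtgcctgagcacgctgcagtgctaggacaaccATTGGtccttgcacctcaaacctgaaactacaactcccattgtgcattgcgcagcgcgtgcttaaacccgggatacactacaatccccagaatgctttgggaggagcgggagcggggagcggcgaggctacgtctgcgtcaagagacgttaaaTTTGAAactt
Top2a promoter: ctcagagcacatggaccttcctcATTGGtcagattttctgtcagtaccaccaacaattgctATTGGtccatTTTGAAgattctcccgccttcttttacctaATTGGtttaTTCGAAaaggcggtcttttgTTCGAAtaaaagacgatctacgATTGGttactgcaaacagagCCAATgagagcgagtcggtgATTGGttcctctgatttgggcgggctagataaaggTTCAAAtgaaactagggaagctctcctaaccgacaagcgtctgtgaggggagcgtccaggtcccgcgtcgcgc
Plk1 holds CCAAT 14 bases before the start and TTTGAA from position 31 after it. Cdk1 has 3 CCAAT matches and 2 of TTTGAA, and Top2a has 6 CCAAT matches, 2 of TTTGAA and 2 of TTCGAA. Nusap1, the gene with the largest rise at P16, has neither motif in these 300 bases, and no match says only that these letters are not in this window. Counted by the P16 result below, CCAAT was in 4 of the 5 higher genes, 7 of the 9 lower genes with an entry and 11 of the 16 others. A homology region match was in 3, 6 and 12 of them.

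At P16 the M-phase genes went both ways in cKO testis. Of the 37, 5 were higher than in control and 13 lower by limma at a Benjamini-Hochberg adjusted p under 0.05 over all genes (termed called), using the 4 libraries of the first kit. Among all 17986 genes tested 38.6% were called, 18.6% higher and 19.9% lower. The transcripts that rose encode the microtubule-bundling protein NUSAP1, PLK1, the kinetochore motor CENPE, BUB3 and CDK1. Those that fell include MYBL2 and FOXM1, the NDC80 complex subunit SPC24, the checkpoint kinase BUB1 and the passenger complex kinase AURKB. The median log2 change was -0.12 over the 37, with 11 up and 26 down, against -0.0005 over all genes. Both cKO libraries lay above both controls for 9 members (34.2% of all genes) and below for 24 (35.4% of all genes). The calls rest on the variance trend across genes: without it, limma called 0 members higher and 2 lower (Bub1 and Aurkb), of 1806 genes in all.

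**Figure D1:**
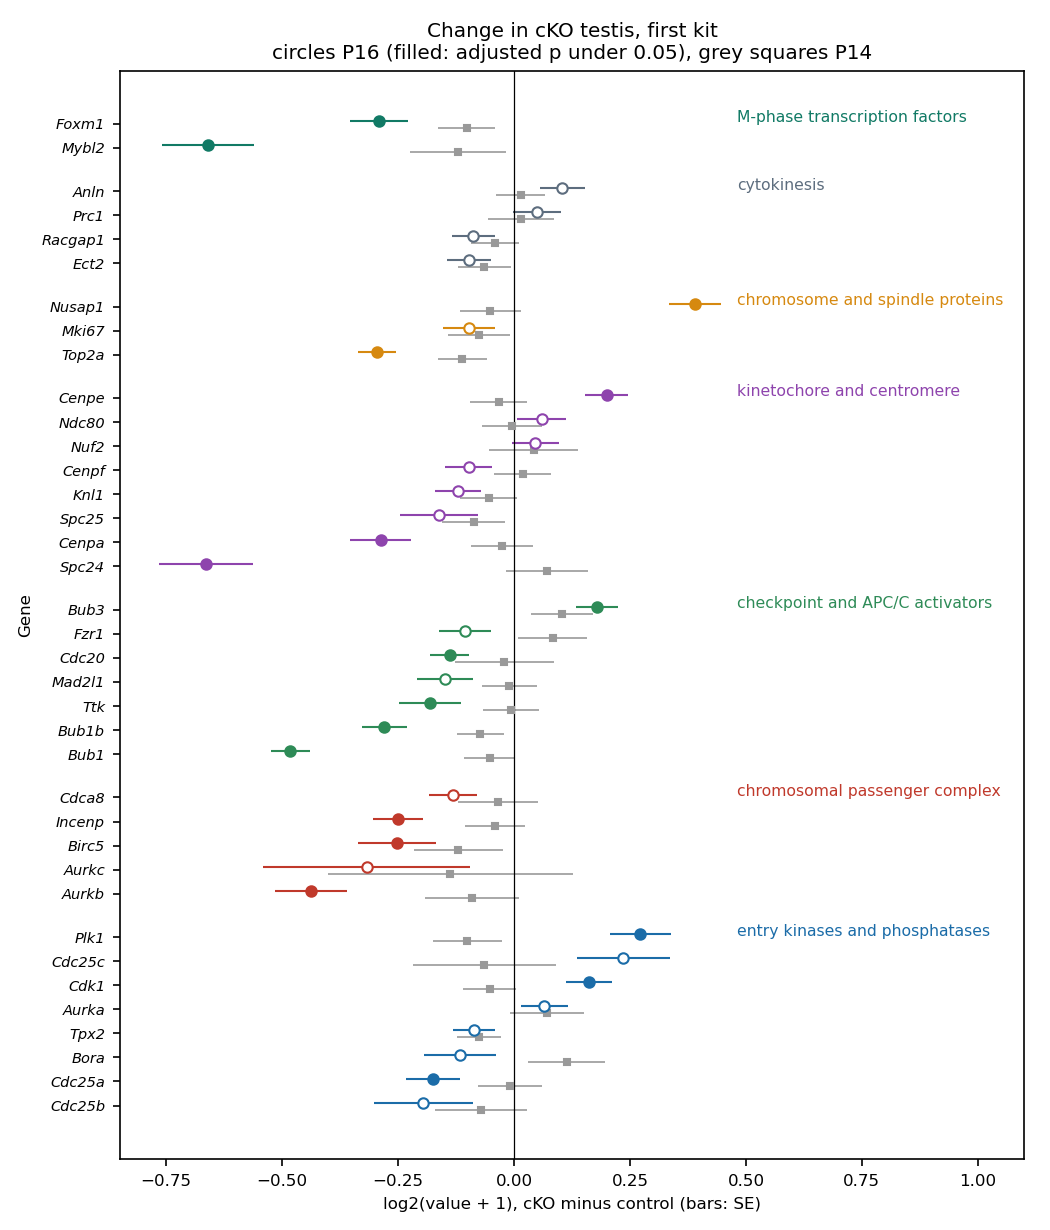
Change of each of the 37 genes in cKO against control testis in the first kit, as the difference in log2(value + 1) with its SE (bars), grouped by role. Coloured circles are P16, filled where the adjusted p was under 0.05 (5 higher, 13 lower), and grey squares are P14, where no gene was called and changes ran from -0.14 to 0.11.

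Germ cell markers moved in the same libraries. Of 11 spermatogonia markers 10 were called lower at P16, their summed value falling from 21033.7 to 21268.7 in control to 15561.4 to 15831.4 in cKO. All 10 early meiotic prophase markers were called lower, with sums of 58020.4 to 61019.8 and 44940.0 to 48468.8. Of 10 pachytene markers 5 were higher and 1 lower, 7 of 10 Sertoli markers were higher (97103.9 to 102618.6 in control, 117263.2 to 129909.7 in cKO), and 4 of 5 macrophage markers were higher. Leydig markers counted 2 higher and peritubular markers 1 higher, of 5 tested each, and Insl3 was at or under 0.95 in every library. The part of these shifts in the results on the M-phase genes was not tested, and in bulk testis RNA fewer cells of a type and less RNA per cell cannot be told apart.

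Among the entry kinases and phosphatases 2 of 8 were called higher and 1 lower. Plk1 (ENSMUSG00000030867) had values of 652.6 and 673.0 in control and 813.2 and 788.2 in cKO. Both cKO libraries lay above both controls, a log2 change of 0.27 ± 0.066 (SE; adjusted p 0.00578 by limma). Cdk1 (ENSMUSG00000019942), the kinase at the centre of entry, read 1584 and 1607 in control and 1792 and 1776 in cKO. It too was separated by genotype, by 0.16 (SE 0.050, adjusted p 0.0227). Cdc25a (ENSMUSG00000032477), which activates CDK1, went the other way. Its values of 1754 and 1832 in control and 1664 and 1514 in cKO did not overlap, and it fell by 0.18 (SE 0.058, adjusted p 0.0307). Its relative Cdc25c was not called, at 239.0 and 227.8 in control and 277.5 and 272.4 in cKO (log2 change 0.24, adjusted p 0.0816). The other 4 (Aurka, its activators Bora and Tpx2, and Cdc25b) had log2 changes of -0.20 to 0.07. Leaving out control library 1 ended the calls of Plk1 (adjusted p 0.0542), Cdk1 (0.159) and Cdc25a (0.068). Without control library 2 Cdk1 stood at 0.104 and Cdc25a at 0.205, and without cKO library 2 Cdc25a stood at 0.151.

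The chromosomal passenger complex corrects wrong attachments and steers cytokinesis, and all 5 of its genes had lower means in cKO at P16, 3 of them called. Aurkb (ENSMUSG00000020897), the kinase of the complex, read 544.5 and 558.6 in control and 398.8 and 415.3 in cKO. The groups did not overlap, and Aurkb fell by 0.44 (SE 0.077, limma adjusted p 0.000774). Incenp (ENSMUSG00000024660), the scaffold, went from 1499 and 1496 to 1241 and 1279, a change of -0.25 (SE 0.054, adjusted p 0.00277). Birc5 (ENSMUSG00000017716), which encodes survivin, read 605.8 and 687.2 in control and 515.3 and 569.6 in cKO. It was also lower in both cKO libraries, by -0.25 (SE 0.084, adjusted p 0.0307). That call was lost without control library 2 (adjusted p 0.276) or cKO library 1 (0.113). Cdca8, encoding borealin, had a log2 change of -0.13 (adjusted p 0.0592). Aurkc, the germ cell relative of Aurkb, was at 74.8 and 71.8 in control and 73.8 and 46.6 in cKO, with overlapping groups and few reads.

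Of the 7 checkpoint genes and APC/C activators 4 were called lower and 1 higher. Bub1 (ENSMUSG00000027379), a kinase that marks the inner centromere and recruits checkpoint proteins, read 6588 and 6340 in control and 4591 and 4663 in cKO. Both cKO libraries were far below both controls, a log2 change of -0.48 ± 0.042 (SE; adjusted p 3.83e-06 by limma). Bub1b (ENSMUSG00000040084), whose product BUBR1 inhibits the APC/C, went from 3255 and 3283 to 2599 and 2788. Its groups were also separate, with a change of -0.28 (SE 0.049, adjusted p 0.000683). Bub3 (ENSMUSG00000066979), the partner that binds both kinases to kinetochores, moved up instead. It read 2639 and 2619 in control and 2981 and 2973 in cKO, higher by 0.18 in both cKO libraries (SE 0.045, adjusted p 0.00698).

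Ttk (ENSMUSG00000038379), the kinase that starts checkpoint signalling and is known as MPS1, stood at 1469 and 1537 in control and 1237 and 1421 in cKO. The libraries were separate by genotype, with a change of -0.18 (SE 0.067, limma adjusted p 0.049). Cdc20 (ENSMUSG00000006398), the APC/C activator that the checkpoint holds back, read 4365 and 4359 in control and 3963 and 3962 in cKO. Replicates were close to each other within a genotype, and Cdc20 fell by 0.14 (SE 0.042, adjusted p 0.0194). Mad2l1 and Fzr1, the latter encoding the other activator, CDH1, had changes of -0.15 and -0.10 that were not called. Ttk lost its call without control library 1 (adjusted p 0.0842), control library 2 (0.232) or cKO library 1 (0.348). Without control library 1 or 2, the adjusted p was 0.146 or 0.136 for Cdc20 and 0.06 or 0.0749 for Bub3. The strand setting of the counting is not given in the sources used here. Whether the counts of genes that overlap on opposite strands affect each other was not tested. Overlaps were taken from whole gene spans and not from exons, so shared reads are not shown. By span Bub3 overlaps Fgfr2 on the other strand and Cdc20 overlaps Elovl1. The same holds for Fzr1 with Mfsd12, Cdca8 with 9930104L06Rik, Cdc25b with Spef1 and Prc1 with Rccd1.

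At the kinetochore 1 of 8 genes was called higher and 2 lower. Spc24 (ENSMUSG00000074476), which joins the NDC80 complex to the inner kinetochore, had the largest fall of all 37. It read 479.0 and 594.6 in control and 329.0 and 343.9 in cKO, a log2 change of -0.66 ± 0.10 (SE; adjusted p 0.00027 by limma). The controls differed from each other by more than the cKO libraries did, but both lay above them. Cenpa (ENSMUSG00000029177) went from 785.6 and 777.9 to 651.2 and 629.7, a change of -0.29 (SE 0.066, adjusted p 0.00424). Cenpe (ENSMUSG00000045328), the motor that brings chromosomes to the spindle equator, was higher in both cKO libraries. Its values were 2759 and 2825 in control and 3135 and 3280 in cKO, a change of 0.20 (SE 0.047, adjusted p 0.00455, or 0.0644 without control library 1). The remaining NDC80 complex genes did not move with Spc24 to a call: Ndc80 changed by 0.06, Nuf2 by 0.05 and Spc25 by -0.16. Knl1 and Cenpf changed by -0.12 and -0.10, neither called.

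Nusap1 and Top2a, which act on spindle and chromosomes, were called in opposite directions. Nusap1 (ENSMUSG00000027306) read 1208 and 1295 in control and 1637 and 1641 in cKO. Both cKO libraries were above both controls, by 0.39 on the log2 scale (SE 0.056, limma adjusted p 0.00017), a fold of 1.31. By gene span it overlaps Oip5 on the other strand, and Oip5 was lower in cKO, by -0.44 (adjusted p 0.000516). Top2a (ENSMUSG00000020914), the topoisomerase that untangles sister chromatids, went from 19107 and 18511 to 15043 and 15617. Its groups were separate, with a change of -0.30 (SE 0.040, adjusted p 0.000114). Mki67, the proliferation marker Ki-67 that coats mitotic chromosomes, had overlapping groups (5029 and 5264 in control, 4511 and 5133 in cKO) and was not called.

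Both transcription factors were called lower. Mybl2 (ENSMUSG00000017861), the B-Myb of proliferating cells, read 468.6 and 478.3 in control and 272.7 and 328.3 in cKO. The groups were far apart, with a log2 change of -0.66 ± 0.099 (SE; adjusted p 0.00024 by limma), 0.633 of the control level. Foxm1 (ENSMUSG00000001517), which takes over from it in the late cell cycle, went from 948.7 and 982.1 to 773.4 and 804.7. It was lower in both cKO libraries, by -0.29 (SE 0.063, adjusted p 0.00281). None of the 4 cytokinesis genes was called: Anln changed by 0.10, Prc1 by 0.05, Racgap1 by -0.09 and Ect2 by -0.10. Of the 18 calls, 10 held in each fit that left out 1 library (Aurkb, Incenp, Bub1, Bub1b, Cenpa, Spc24, Top2a, Nusap1, Foxm1 and Mybl2).

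**Figure D2:**
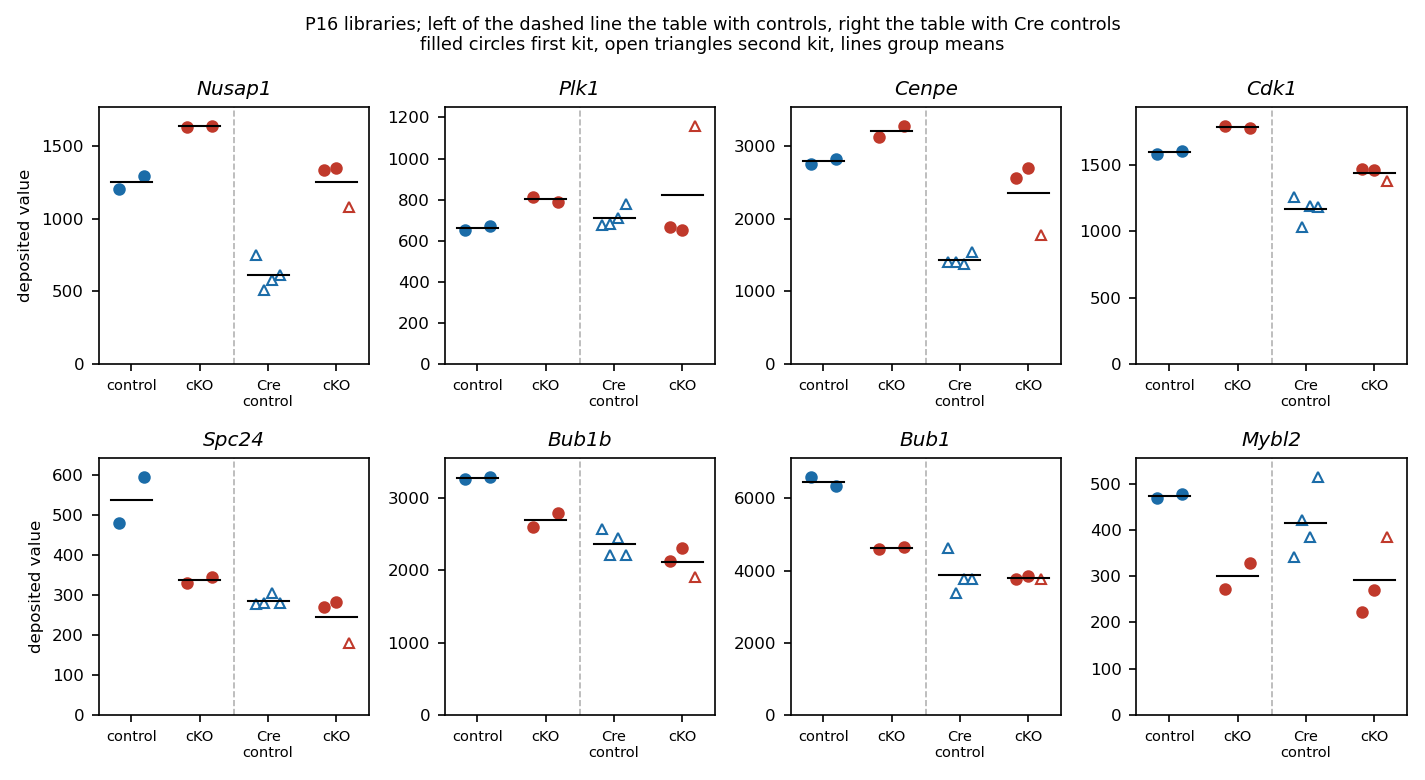
Deposited value per library at P16 for 8 of the genes. In each panel the table with controls is left of the dashed line and the table with Cre controls right of it, filled circles are the first kit, open triangles the second, and lines are group means. For Nusap1, Plk1, Cenpe and Cdk1 the cKO triangle lies above all 4 Cre controls and for Spc24 and Bub1b below them, while for Bub1 and Mybl2 it lies within their range.

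The second kit holds 1 cKO library at P16, which took no part in the comparison above and was set against the 4 Cre controls as a description without a test. It lay above all 4 for 12 members and below all 4 for 7, where 24.0% and 30.0% of all genes did so, and within their range for 18. The median difference was -0.02 over the members and -0.03 over all genes. Plk1 read 1158 in this library and 678.1, 681.9, 708.9 and 779.9 in the Cre controls, a log2 difference of 0.70. Nusap1 read 1080.0 against 749.3, 508.8, 582.6 and 613.6, a difference of 0.83. Cenpe read 1781 against 1410, 1402, 1377 and 1543, a difference of 0.32. In each of these 3 genes the cKO library was well above the highest control, as in the first kit. Spc24 at 180.0 was below every Cre control (277.0, 278.8, 303.9 and 281.0), by -0.66, the same size as in the first kit.

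Of the 5 members higher in the first kit, all 5 differed in the same direction in this library, and Cdk1, Plk1, Cenpe and Nusap1 lay outside the Cre controls. Of the 13 lower members 10 had the same direction, with Bub1b, Cdc20 and Spc24 outside. Over all called genes 83.8% of the higher and 79.7% of the lower had the same direction. Aurkb (0.17), Foxm1 (0.13) and Top2a (0.01) were the 3 lower members that differed upward here, each within the Cre controls. Bub1 at 3755 was inside their range of 3379 to 4632, and Mybl2 at 383.8 inside 341.3 to 514.4. Mki67 (3510, against 2197 to 2654) and Cdc25c (260.7, against 144.6 to 228.5) were above all Cre controls. Per the column names Cre control library 1 shared a flow cell with the cKO library, and Cre control libraries 2 to 4 did not. Against Cre control library 1 alone the differences were 0.77 for Plk1, 0.53 for Nusap1, 0.34 for Cenpe and -0.62 for Spc24. Fewer of the 13 lower members kept their direction against it. Aurkb (0.26), Mybl2 (0.17), Foxm1 (0.17), Cdc25a (0.09), Cenpa (0.06) and Incenp (0.0013) differed upward. Besides Spc24, those that differed downward were Bub1b, Birc5, Cdc20, Bub1, Ttk and Top2a. Of the 5 higher members, Cdk1 differed by 0.13 and Bub3 by -0.0002.

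The spermatogonia markers of this cKO library summed to 16818.9, within the Cre controls (14378.9 to 18466.5), where in the first kit the cKO sums were below control. Its early meiotic sum of 23002.3 was under their lowest (23861.9), and its Sertoli (116968.9) and macrophage (1369.8) sums were above their highest (112177.0 and 1352.3).

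**Figure D3:**
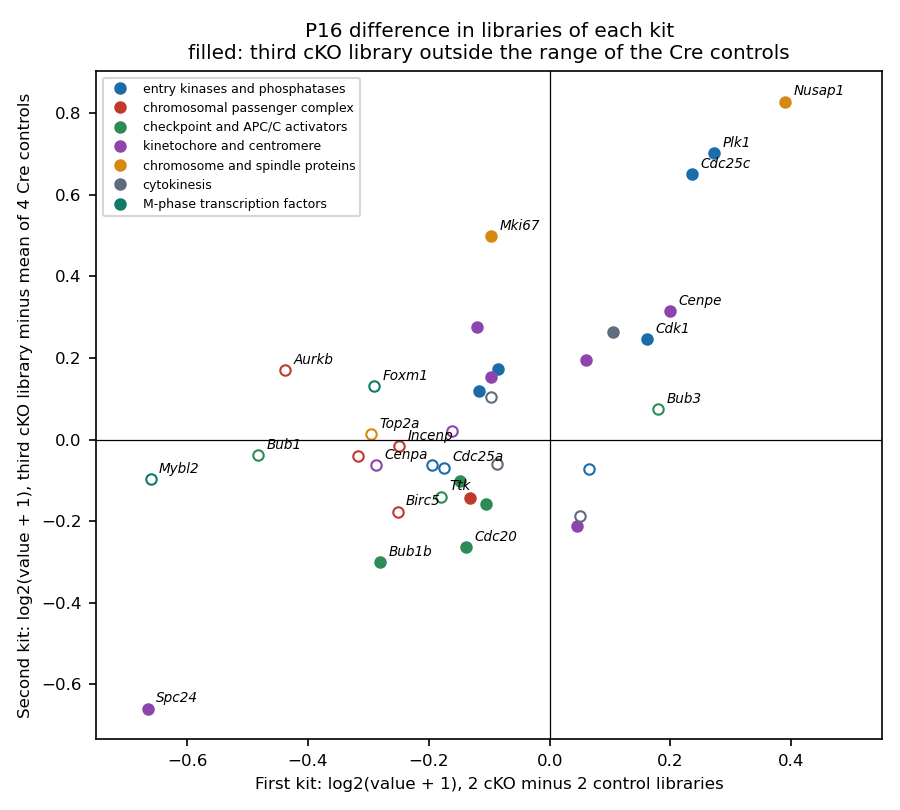
Difference at P16 in the libraries of each kit: first kit on the x axis (2 cKO minus 2 control), second kit on the y axis (the third cKO library minus the mean of 4 Cre controls), both in log2(value + 1), coloured by role. Filled points mark members for which cKO library 3 lay outside the Cre controls; Nusap1 and Plk1 are high on both axes and Spc24 low on both (-0.66 in each).

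The 9 P16 libraries were also fitted together, with a term for the kit and recovered reads as log2 CPM (reads scaled to library size). Controls and Cre controls were taken as a single control arm, so the kit term also carries the difference between these control types. Per the column names the kits were also on different flow cells, and that difference falls in the same term. In this fit limma called 5 members. Higher were Nusap1 (0.59, SE 0.12, adjusted p 0.0123), Plk1 (0.47, SE 0.099, adjusted p 0.0129) and Cenpe (0.26, SE 0.064, adjusted p 0.0238). Lower were Spc24 (-0.66, SE 0.098, adjusted p 0.00404) and Bub1b (-0.28, SE 0.064, adjusted p 0.0168). Of all 19887 genes 13.6% were called, 6.05% higher and 7.58% lower. The falls of Bub1 (-0.28, adjusted p 0.0997), Mybl2 (-0.40, adjusted p 0.106) and Aurkb (-0.16, adjusted p 0.44) did not pass here. Without the variance trend Spc24 alone was called (adjusted p 0.0248), the other 4 standing at 0.05 to 0.073. Spc24 was called in all 9 fits that left out a library. Among the markers 6 of 10 early meiotic and 1 of 11 spermatogonia markers were called lower and 2 of 10 Sertoli, 2 of 5 macrophage and 1 of 10 pachytene markers higher over both kits, and their part was not tested. Without cKO library 3 no member was called higher, with adjusted p of 0.126 for Nusap1, 0.127 for Plk1 and 0.161 for Cenpe. Cenpe was also lost without control library 1 (0.0605) or cKO library 2 (0.0557). Bub1b was lost without any 1 of the 5 libraries that are control or cKO (adjusted p 0.0568 to 0.111).

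In the deposited table with Cre controls at P16, 3 members were called higher and 1 lower, where 9.07% of 19200 genes were called, 4.3% higher and 4.77% lower. All controls there are of the second kit and 2 of the 3 cKO libraries of the first. Nusap1 averaged 613.6 ± 100.6 (SD, n = 4) in Cre control and 1258 ± 154.1 (SD, n = 3) in cKO (log2 1.04, SE 0.15, limma adjusted p 0.0367). Mki67 averaged 2490 ± 201.0 and 3812 ± 374.8 (0.61, SE 0.0999, adjusted p 0.0367), and Cenpe 1433 ± 74.8 and 2351 ± 498.1 (0.69, SE 0.15, adjusted p 0.0408). Cdc20 averaged 5060 ± 443.4 and 3571 ± 546.3 (-0.51, SE 0.12, adjusted p 0.0444). The cKO libraries of these 4 genes lay wholly outside the Cre controls. With the kit as a covariate no member was called, of 1 gene in all. Leaving out any library other than cKO library 3 also ended all 4 calls. Without cKO library 3 the calls were 14 higher and 9 lower, in libraries among which genotype and kit cannot be told apart.

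At P14 no member was called in any comparison with all its libraries. Against control 0.00579% of 17270 genes were called by limma, and no member passed an unadjusted p under 0.05, as 410 genes did (2.37%). DESeq2 on the recovered reads called 6 genes and no member. The log2 changes of the 37 ran from -0.14 to 0.11, with a median of -0.04 (0.01 over all genes) and 28 members lower. Nusap1 read 1064 and 1138 in control and 1055 and 1068 in cKO, and Spc24 430.6 and 467.1 in control and 470.0 and 472.4 in cKO. Both cKO libraries lay above both controls for 3 members, Bora, Bub3 and Spc24 (15.1% of all genes), and below for 11 (14.5% of all genes). Against Cre control limma called 0.0% of 18196 genes and DESeq2 called 5. No member was among the 705 genes (3.87%) at an unadjusted p under 0.05. Without cKO library 3 that table had 7 members called higher and 9 lower, of 6340 genes, and there genotype and kit cannot be told apart. Over both kits 0.00523% of genes were called and again no member. Top2a was the 1 member at an unadjusted p under 0.05 there, with a log2 change of -0.15 (SE 0.053), and 477 genes in all (2.49%) passed it.

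In the second kit at P14 the single cKO library lay below both Cre controls for 13 members and above both for 2, where 33.3% and 26.9% of all genes did so, and within them for 22. The median difference was -0.04 over the members and -0.02 over all genes. There is 1 cKO library of that kit, so no test was made. The early meiotic marker sum of this library was 20118.0, below both Cre controls (24334.3 and 24974.3). Also below both were its pachytene (10654.4, against 11058.8 and 14353.1) and macrophage sums (1196.7, against 1221.3 and 1381.6). Its Leydig sum of 3468.2 was above both (1486.5 and 3112.4). The spermatogonia, Sertoli and peritubular sums lay between them. The part of these shifts in the members' differences was not tested.

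An interaction term, fitted to log2 CPM of the 8 first-kit libraries, tested whether the cKO effect at P16 differed from that at P14. It was called for 4 members, 2 with a higher and 2 with a lower effect at P16, where 7.5% of 18469 genes were called, 2.95% higher and 4.55% lower. Plk1 at P14 was 27.9 and 28.6 CPM in control and 27.0 and 25.7 in cKO. At P16 it was 25.1 and 26.0 in control and 31.4 and 30.8 in cKO, so the order of the genotypes turned. The difference of effects was 0.39 (SE 0.091, limma adjusted p 0.0348).

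Nusap1 was 44.2 and 47.1 CPM in control and 43.7 and 44.2 in cKO at P14, and 46.5 and 49.95 in control and 63.1 and 64.2 in cKO at P16. The cKO libraries at P16 stood above all others, with a difference of effects of 0.46 (SE 0.084, limma adjusted p 0.0157). Bub1 was 243.8 and 246.8 in control and 227.2 and 245.0 in cKO at P14, then 253.5 and 244.5 against 177.1 and 182.4. Here the P16 cKO libraries stood below all others (-0.41, SE 0.068, adjusted p 0.00929). Spc24 was 17.9 and 19.3 in control and 19.5 and 19.5 in cKO at P14, then 18.4 and 22.9 against 12.7 and 13.5. Its difference of effects was the largest of the members (-0.72, SE 0.15, adjusted p 0.0234). Mybl2 missed the threshold at -0.52 (adjusted p 0.073), as did Cdk1 at 0.23 (0.0721).

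Markers differed in their effect too. The effect at P16 was called lower for 5 of 11 spermatogonia and 4 of 10 early meiotic markers and higher for 5 of 10 Sertoli, 2 of 5 macrophage and 1 of 10 pachytene markers, and their part was not tested. The interaction calls moved with single libraries. Bub1 was lost without control P16 library 1 alone (adjusted p 0.0659). Nusap1 was lost in 4 of the 8 fits: without control P14 library 2 (0.0653), control P16 library 1 (0.0832), cKO P16 library 1 (0.0689) or cKO P16 library 2 (0.0551). Spc24 was lost in 5, without control P14 library 1 (0.0667) or 2 (0.0509), control P16 library 2 (0.0855), or cKO P16 library 1 (0.0824) or 2 (0.0532). Plk1 was lost in 7 (adjusted p 0.0634 to 0.138), holding only without cKO P14 library 1. Without the variance trend none of the 4 was called, of 136 genes in all.

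**Figure D4:**
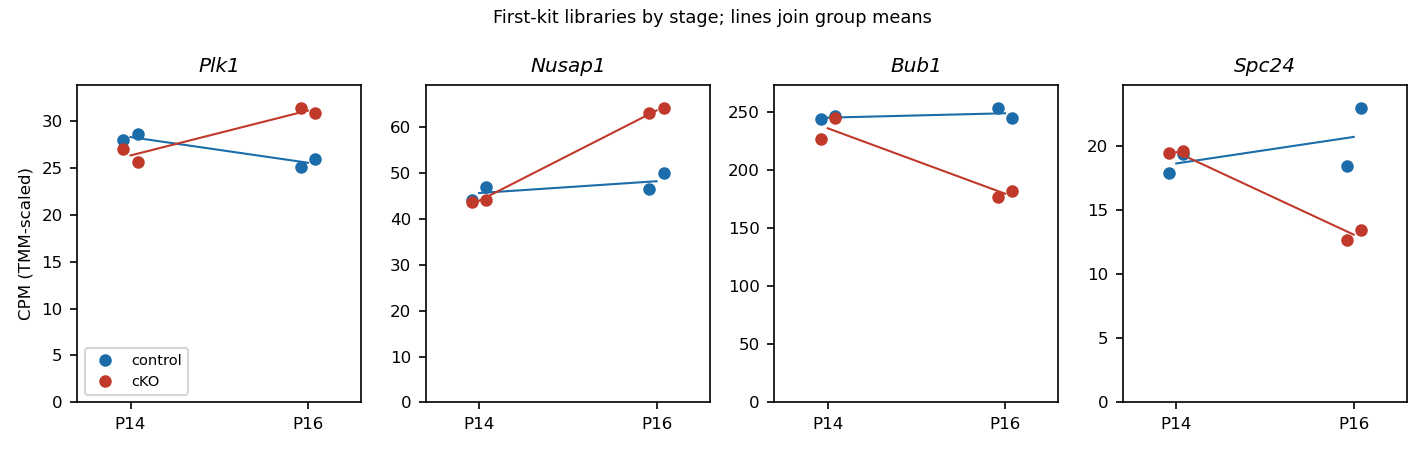
Level in CPM (y axis, from 0) by stage for the 4 genes whose cKO effect differed between P14 and P16, in the 8 first-kit libraries. Points are libraries and lines join group means; the cKO means of Plk1 and Nusap1 go up (44.0 to 63.7 CPM for Nusap1) and those of Bub1 and Spc24 go down (236.1 to 179.7 CPM for Bub1).

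From P14 to P16 in control testis 5 members were called higher and 1 lower, where 13.4% of genes were called higher and 6.67% lower. Aurka went from 46.8 ± 2.80 (SD, n = 2) to 60.5 ± 0.312 (SD, n = 2) CPM, a log2 change of 0.37 ± 0.066 (SE; adjusted p 0.00361 by limma). Nuf2 rose from 70.4 ± 3.45 to 89.0 ± 0.577 CPM (0.34), Prc1 from 123.9 ± 2.14 to 151.4 ± 6.68 (0.29), Bub3 by 0.19 and Aurkc by 0.85 at a low level (1.57 to 2.83 CPM). Foxm1 fell from 44.6 ± 0.625 to 37.2 ± 0.970 CPM (-0.26). Over the same days all 10 pachytene markers and 2 of 10 early meiotic markers were called higher. Called lower were 3 of 11 spermatogonia, 5 of 10 Sertoli, 4 of 5 peritubular and 4 of 5 macrophage markers, and 1 of 5 Leydig markers tested was higher. The part of these shifts in the members' stage changes was not tested. Of these 6 members Aurka alone was called in all 8 fits that left out a library. Without the variance trend Aurka and Foxm1 were called and the other 4 were not (adjusted p 0.0873 to 0.132).

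In cKO testis 16 members were called between the stages, where 29.9% of all genes were. All 10 pachytene, 2 of 10 Sertoli and 1 of 5 Leydig markers were called higher there. Lower were 9 of 11 spermatogonia, 5 of 10 early meiotic, 2 of 10 Sertoli and 1 of 5 peritubular markers, with none of the 5 macrophage markers called, and their part was not tested. Higher were Nusap1 (44.0 ± 0.363 to 63.7 ± 0.739 CPM, 0.53), Aurka (0.38), Nuf2 (0.36), Prc1 (0.34), Bub3 (0.28), Plk1 (0.24), Cdk1 (0.19) and Anln (0.16). Lower were Spc24 (-0.58), Aurkb (-0.55), Mybl2 (-0.47), Cenpa (-0.43), Foxm1 (-0.43), Bub1 (-0.39), Cdc25b (-0.38) and Incenp (-0.21). Called in all 8 fits that left out a library were Nusap1, Aurka, Bub3, Spc24, Aurkb, Cenpa, Foxm1 and Bub1. A member called in 1 genotype and not in the other is not thereby shown to differ between them; apart from Plk1, Nusap1, Bub1 and Spc24 the difference itself was not called.

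In Cre control testis the stage change was called higher for Aurka (0.49), Nuf2 (0.46) and Cdc20 (0.39) and lower for Aurkb (-0.53), Foxm1 (-0.41) and Mki67 (-0.37), where 11.9% of genes were called, 9.17% higher and 2.74% lower. These libraries are of the second kit, and Cre control P16 libraries 2 to 4 came from another flow cell than the rest. When each library was left out in turn, each of the 6 kept its call in 1 or 2 of the 6 fits, and without the variance trend none did. In these libraries 10 of 10 pachytene and 1 of 10 early meiotic markers were called higher, and 4 of 11 spermatogonia, 1 of 10 early meiotic, 2 of 10 Sertoli and 2 of 5 peritubular markers lower, and their part was not tested.

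Per kilobase of exon, Cdc20 had the highest level of the members in control at P16 (90.0 ± 0.059 CPM per kb, SD, n = 2), followed by Top2a (80.4 ± 1.67) and Bub1 (57.2 ± 1.46), all 3 of them lower in cKO. Cdc25c (1.83 ± 0.059) and Aurkc (1.86 ± 0.050) were the lowest. Between neighbours such as Bub1b (29.5 ± 0.228) and Tpx2 (29.4 ± 1.00) the levels did not differ beyond their spread.

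The wider machinery was followed in 4 lists. Shares over all genes stand beside each count as background. Among other kinetochore genes 20 of 34 were called lower at P16 against control and 1 higher, where 19.9% and 18.6% of all genes were. Cenpi, of the inner kinetochore, averaged 539 ± 19.9 (SD, n = 2) in control and 324 ± 12.8 (SD, n = 2) in cKO (log2 -0.73, limma adjusted p 3.06e-05), and Ska2, which keeps kinetochores on microtubules, fell by 0.63 (adjusted p 5.01e-05). The gene that was higher was Mad2l1bp (0.31), whose product takes the checkpoint complex apart. The list's median change was -0.27, against -0.0005 over all genes. Over both kits 11 of the 34 were lower and 0 higher (7.58% and 6.05% of all genes), Ska2 among them (-0.51, adjusted p 0.011) and Cenpi not (adjusted p 0.0675).

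Of 20 APC/C subunits and regulators 10 were called lower and 4 higher, where 19.9% and 18.6% of all genes were. Fbxo5, which encodes EMI1, an inhibitor of the APC/C in cycling cells, averaged 494 ± 23.2 (SD, n = 2) in control and 248.6 ± 19.0 (SD, n = 2) in cKO (-0.99, limma adjusted p 7.27e-06). Its relative Fbxo43, which encodes the meiotic inhibitor EMI2, was higher (423 ± 64.8 and 535 ± 0.536, 0.35, adjusted p 0.0141). The subunit gene Anapc2 fell by 0.35 (adjusted p 0.000244). Over both kits, where 7.58% of all genes were called lower and 6.05% higher, 4 were lower, with Fbxo5 at -0.61 (adjusted p 0.0317) and Anapc2 at -0.25 (adjusted p 0.0303), and 1 higher (Cdc27). The genes higher against control, besides Fbxo43, were Cdc26 (0.33), Cdc27 (0.30) and Pttg1 (0.33), the last encoding securin.

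Of 19 other entry, spindle and cytokinesis genes tested 6 were lower and 3 higher, against the same 19.9% and 18.6% of all genes, and nothing is read from these counts about the list. Plk4, the kinase of centriole duplication, fell by 0.51 (limma adjusted p 5.04e-05) and Ensa, an inhibitor of the phosphatase that opposes CDK1, by 0.48 (adjusted p 3.75e-06). Both were also lower over both kits (adjusted p 0.0352 and 0.00141). The 3 higher genes were Spag5 (0.22), Hmmr (0.22) and Aspm (0.17), all of spindle proteins. Of 14 genes of the DREAM and MYB regulators tested, the complexes that act with MYBL2 and E2F factors, 5 were lower and 3 higher, again beside 19.9% and 18.6% of all genes, and these counts too are not read as particular to the list. E2f1 averaged 449 ± 23.1 (SD, n = 2) in control and 240 ± 13.04 (SD, n = 2) in cKO (-0.90, adjusted p 1.52e-05), and E2f2 fell by 0.82 (adjusted p 0.000322). Mybl1, the relative of Mybl2 that acts in pachytene spermatocytes, was higher (3468 ± 27.6 and 4519 ± 332.7, 0.38, adjusted p 0.000116), where Mybl2 was lower. The pocket protein genes Rbl1 (0.37) and Rbl2 (0.24) were higher too, and E2f4 (-0.37), E2f5 (-0.42) and Lin9 (-0.19) lower. Over both kits E2f1 was lower (-0.76, adjusted p 0.00795) and E2f2 missed the threshold (adjusted p 0.0554).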

How the data were processed

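Testis RNA of 16 libraries was measured by RNA-seq. Per the submitters' processing notes, Trim Galore, STAR, HTSeq and DESeq2 were used with GRCm39 (mm39); versions, roles, the annotation release and the strand setting are not given in the sources used here. The authors deposited 4 tables of a normalized signal, the reads on each gene after division by the library's size factor, set within each table. Whole reads were recovered from all 20 columns (100.0% of values whole, tolerance 0.01). The cKO libraries 1 and 2 of a stage appear in both of its tables with identical reads. Rows that name no gene (4 per table, 53.4% to 63.0% of reads) were left out. No 2 replicates agreed within sampling noise (lowest chi-square per gene 2.36).

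Differences were tested with limma 3.58.1 (eBayes with trend, R 4.3.3) on log2(value + 1), which understates changes of low genes, after removing genes that did not reach a value of 10 in 2 or more libraries. Fits over both kits, of stage and of the interaction used log2 CPM (TMM, prior count 1, edgeR 4.0.16 filterByExpr) of the recovered reads. P-values were adjusted by Benjamini-Hochberg over all genes tested, and an adjusted p under 0.05 is termed called. Scripts were tested on simulated data. Alternatives were other pseudocounts (0.1, 10) and prior counts (5), filters (none, 50), TMM or DESeq2 scaling, edgeR, DESeq2 1.42.0, eBayes without trend, a replicate block, the kit as a covariate, and leaving out each library.

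The members and lists were chosen with earlier results of these data known. Values per library are given for all members called at P16 against control, in the interaction or over both kits. Of each pathway list, the 2 called genes with the largest change are named, with Fbxo43 and Mybl1 as counterparts. Other list genes (Mad2l1bp, Oip5, Cdc26, Cdc27, Pttg1, Spag5, Hmmr, Aspm, Rbl1, Rbl2, E2f4, E2f5, Lin9) were named after their values were seen. Gene names, exon lengths and overlaps came from GENCODE M21 (52081 of 55414 IDs named). That release is of another build than the counts, so gene coordinates are given for the RefSeq promoters only.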

Additional observations from a re-analysis of the deposited data

Results flagged for a closer look

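In 5 of the 37 members, 1 of the 4 Cre control P16 libraries stood far from the other 3 (Dixon's test, 95% level), and in each case it was the highest. Chance flags about 1 in 20 such groups. Library 4 was the highest for Cdc25c (228.5), Aurkb (550.4), Cenpa (729.4) and Foxm1 (1006), and library 3 for Spc24 (303.9). For Spc24 the third cKO library stayed below all 4 Cre controls, and for Cdc25c it stayed above them.

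The effect of the knockout was called as different between P14 and P16, by the interaction test, for Plk1 (0.39 on the log2 scale) and Nusap1 (0.46), which were higher in cKO at P16, and for Bub1 (-0.41) and Spc24 (-0.72), which were lower. As given above, all of these calls depended on which libraries were kept, and without the variance trend none was made.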

How the results depend on the processing

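Alternatives were run for the counts, for the members' changes at P16 against control and for members called in another comparison. No called change reversed direction. Among members not called at P16 against control, the sign could turn when 1 library was left out. Aurkc then ran up to 0.0085, Nuf2 down to -0.0058 and Prc1 down to -0.0084. Other values, such as those of the pathway lists and markers, have the 1 fit. Of the 18 members called at P16 against control, the number that lost the call was 4 with no filter on low values, 5 with DESeq2, 16 without the variance trend and 1 with each of a pseudocount of 0.1, TMM scaling and edgeR. Counts are given as members higher, members lower and genes. Without the variance trend these were 0, 2 and 1806 at P16 against control, 0, 0 and 32 against Cre control, 0, 1 and 1026 over both kits, 0, 0 and 136 for the interaction. For the stage changes it called 1 member higher and 2164 genes in control, and 0, 0 and 947 in Cre control, and at P14 it called 0 genes against control and over both kits.

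At P14 against control no filter gave 0 genes and DESeq2 gave 6, DESeq2 against Cre control gave 5, and edgeR over both kits gave 2. Against Cre control at P16, a pseudocount of 10 gave 7, 2 and 3277, a minimum value of 50 gave 7 higher, no filter 0 lower and 917 genes, TMM 0 lower, edgeR 5 and 0, DESeq2 10, 3 and 4188, and the kit as a covariate 0, 0 and 1. With no filter the stage change in control had 2 members higher, that in Cre control 5 and 1, and the interaction 1 higher and 727 genes. DESeq2 size factors gave 2 lower for the stage change in control and 1 higher in Cre control.

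Replicate numbers were not taken to pair libraries: the correlations of same-numbered deviations ranged from -0.23 to 0.30, with 0.08 in the P16 table with controls. With the replicate block the counts were 6, 18 and 8200 at P16 against control, 5 genes at P14, 0, 0 and 0 against Cre control at P16, and 0, 1 and 993 over both kits. Against Cre control at P14 the block gave 7, 9 and 6966, where the third cKO library has no partner and kit and genotype cannot be told apart. For the stage changes the block gave 9 and 2 members in control and 1 higher in Cre control, and 2242 genes for the interaction.

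Leaving out each library in turn gave 1 to 6 members higher, 9 to 18 lower and 4767 to 7132 genes at P16 against control, 0 to 4 genes at P14, 0 to 14, 0 to 9 and 0 to 9441 against Cre control at P16, and 0 to 7, 0 to 9 and 0 to 6340 at P14. Over both kits at P16 it gave 0 to 5, 1 to 3 and 674 to 3299. For the stage change it gave 1 to 8, 0 to 3 and 1665 to 4716 in control, 4 to 9, 5 to 11 and 3462 to 5407 in cKO, and 0 to 5, 0 to 7 and 573 to 2767 in Cre control. For the interaction it gave 0 to 2, 1 to 4 and 271 to 3205. Where 1 library was left in an arm, it is assumed to vary like the other groups. Fewer libraries and, without the trend, less shared information on the spread come with these settings; beyond that the cause was not tested. The size of change that 2 libraries a group could detect was not measured; the member with the fewest reads was Aurkc.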
